A study of Mus musculus with 10 samples.

Results

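Voltage-gated calcium channels open when a neuron depolarizes and admit the Ca2+ that triggers transmitter release, shapes spikes and bursts, and starts signals to the nucleus. The pore of each channel is a single large protein, the alpha-1 subunit, encoded by a Cacna1 gene. The 8 genes described here are Cacna1a, Cacna1b, Cacna1c, Cacna1d, Cacna1e, Cacna1g, Cacna1h and Cacna1i, chosen by name from 55367 listed genes. They are the Cacna1 genes other than Cacna1f and Cacna1s, the forms best known from retina and skeletal muscle.

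The levels come from 10 single inspiratory neurons of the preBötzinger complex (preBötC), the brainstem site that generates the rhythm for inspiration. Each neuron was recorded in whole-cell patch clamp in a slice from a mouse pup, its contents were drawn into the pipette, and 1 library was made from it (Patch-Seq). The recordings sorted the neurons into 4 Type-1 neurons (samples 4 to 7), which show a transient outward potassium current, 1 Type-2 neuron (sample 1), which shows a hyperpolarization-activated inward current, and 5 Unknown neurons (samples 2, 3, 8, 9 and 10), which could not be classified. By the sample titles, samples 1, 5, 6 and 7 were Dbx1-derived neurons of Dbx1;Ai148 mice, in which Cre driven by Dbx1 turns on the Ca2+ indicator GCaMP6f, on a C57Bl/6J or mixed C57Bl/6J;CD1 background. Samples 2, 3, 4, 8, 9 and 10 came from wild-type CD-1 mice without a reporter. Legends of the study's figures assign the mouse lines to the samples in another way, and the titles were used for each comparison of lines. The pups were P0 (samples 1, 3, 5 and 8), P1 (sample 10), P2 (samples 2 and 9) or P3 (samples 4, 6 and 7). No label named the animal, Type-2 was 1 neuron, and 3 of 4 Type-1 neurons but 0 of 5 Unknown neurons were Dbx1-derived, so type and mouse line cannot be told apart. The types were therefore described side by side, without tests or p-values.

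The alpha-1 genes fall into 3 families by current. Cav1 channels carry the L-type current (Cacna1c and Cacna1d), which lasts long and couples activity to gene expression. Cav2 channels sit mainly at presynaptic terminals, where P/Q-type (Cacna1a) and N-type (Cacna1b) channels are the main triggers of transmitter release and R-type channels (Cacna1e) add to it. Cav3 channels carry the T-type current (Cacna1g, Cacna1h and Cacna1i), which opens near the resting potential and is known for rebound firing and bursts.

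The families differ in the coding sequence of the pore itself. Ca2+ is selected by a ring of acidic residues, 1 from each of the 4 domains of the protein. Cav3 channels part from Cav1 and Cav2 channels in domains III and IV, and domain III is shown here. The 33 bases around the codon of its residue are given for the 8 genes, read from the mouse transcripts of GENCODE M21 (GRCm38) in the longest coding sequence of each gene, 5′ to 3′ on the gene's strand, with the codon of the selectivity residue in capitals.
Cacna1a: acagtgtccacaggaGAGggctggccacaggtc
Cacna1b: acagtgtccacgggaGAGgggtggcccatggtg
Cacna1e: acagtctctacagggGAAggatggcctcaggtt
Cacna1c: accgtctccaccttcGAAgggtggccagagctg
Cacna1d: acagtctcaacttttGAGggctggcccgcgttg
Cacna1g: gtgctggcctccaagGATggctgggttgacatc
Cacna1h: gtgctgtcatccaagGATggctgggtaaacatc
Cacna1i: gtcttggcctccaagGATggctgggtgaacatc
The codon is GAG or GAA, for glutamate, in the 5 Cav1 and Cav2 genes and GAT, for aspartate, in the 3 Cav3 genes. In Cacna1a the stretch runs over chr8:84581323-84583562 on the plus strand, and in Cacna1b over chr2:24650625-24651109 on the minus strand. In the 5 Cav1 and Cav2 genes it is divided between adjacent exons by an intron, as in exons 27 and 28 of Cacna1a. In the Cav3 genes it lies within exon 24, at chr11:94426456-94426488 (minus) for Cacna1g, chr17:25383493-25383525 (minus) for Cacna1h and chr15:80376792-80376824 (plus) for Cacna1i.

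The genes are long, with deposited lengths (all exon bases of a gene) between 9763 bases for Cacna1h and 25228 bases for Cacna1e. In GRCm38 Cacna1a spans chr8:84388440-84640246 (plus), Cacna1b chr2:24603887-24763152 (minus), Cacna1e chr1:154390731-154884501 (minus) and Cacna1c chr6:118587240-119196418 (minus). Cacna1d spans chr14:30039939-30491455 (minus), Cacna1g chr11:94408391-94474198 (minus), Cacna1h chr17:25374285-25433783 (minus) and Cacna1i chr15:80287238-80398279 (plus). Although the proteins are related, the longest run of bases shared by the transcripts of any of 28 pairs of members was 68 bases, between Cacna1g and Cacna1i, against reads of 150 bases. Of Cacna1a and Cacna1b, the pair with the highest levels, the longest shared run was 35 bases. Exons of 3 members overlap a gene on the other strand, and the library kit does not mark strand. The antisense gene Gm16183 shares 435 exon bases with Cacna1a and held 415 fragments over the 10 libraries, and reads of the pair cannot be told apart there. Chdh (589 bases shared with Cacna1d) and Tpsg1 (158 bases shared with Cacna1h) had 0 fragments.

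Levels are given as deposited FPKM, the fragments counted on a gene per kilobase of its length and per 1000000 fragments counted on genes. The libraries held 21392146 to 36629393 such fragments, so that 3 counts, the limit that a count of 0 allows, equal 0.00325 to 0.0144 FPKM over the members and libraries. The molecules carry no identifiers, so limits and intervals on counts (exact 95% Poisson) cover counting error only. The study describes samples 1 to 4 as low in cDNA, and 5055 to 6795 genes reached 1 FPKM in these against 6632 to 9307 in samples 5 to 10. The single Type-2 neuron and the Unknown samples 2 and 3 are among them. Sample 4 stood apart further. There the list of 8 neuronal genes summed to 58.4 FPKM against 761 to 4670 elsewhere, with Snap25 at 3.63 FPKM. The 8 listed microglia genes summed to 15398 FPKM there, against 0.685 to 2039 elsewhere. All 8 were at 1 FPKM or more in sample 4 and also in sample 2, which had the sum of 2039 FPKM. The part of this in the values of samples 4 and 2 was not tested. Sample 9 had 4 of 5 motoneuron genes at 1 FPKM or more, with the vesicular acetylcholine transporter Slc18a3 at 444 FPKM, a gene that did not exceed 0.317 FPKM elsewhere.

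The 80 values of 8 genes in 10 neurons parted into levels that rest on many fragments and levels that rest on few. There were 21 values at 1 FPKM or more, 10 from 0.1 to under 1 FPKM, 23 above 0 but under 0.1 FPKM, and 26 at 0. No value at 0.1 FPKM or more rested on fewer than 43 fragments, and no value above 0 but under 0.1 FPKM on more than 19. Reads of other libraries can add such small counts. From genes nearly private to 1 library, the 23 low values were expected to hold 42.9 fragments of other libraries in all, where 151 were counted, and 12 of the 23 lay within the 95% Poisson range of their expected count. For the 31 values at 0.1 FPKM or more, the expected share from other libraries was at most 0.860%. Values under 0.1 FPKM are therefore printed, but no order is read from them.

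**Figure D1:**
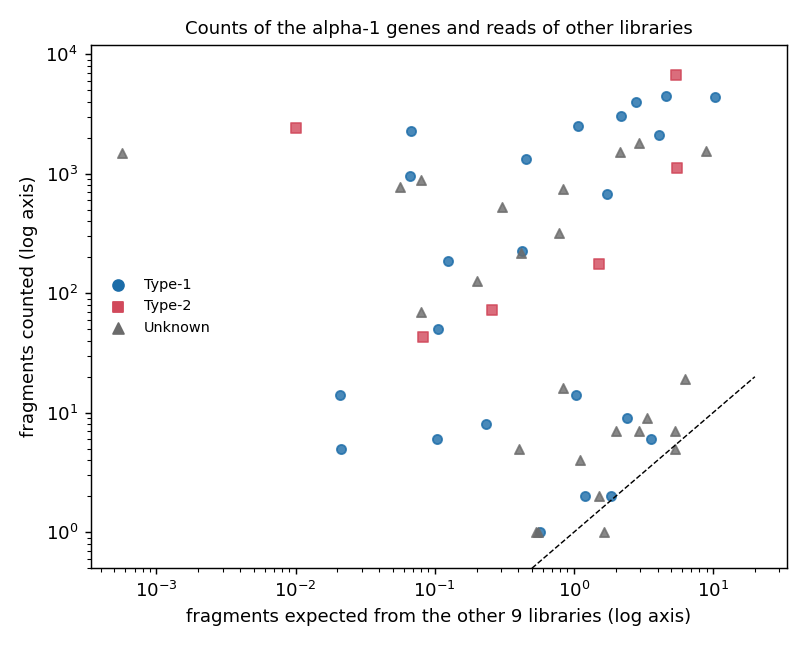
Fragments counted for each alpha-1 gene in each neuron (vertical, log axis) against the fragments expected from the other libraries (horizontal, log axis), with colour and shape giving the neuron type, a dashed line where both are equal, and values of 0 left out. The 31 values from 43 fragments upward lie far above the line, while the 23 values of 1 to 19 fragments reach down to it.

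Fragments were found for 7 of the genes, and 2 of them, both Cav2, made up most of the signal in most neurons. Of the 8 members, 7 reached 1 FPKM in 1 neuron or more, against 29.9% of the 55367 listed genes, and 2 (Cacna1a and Cacna1b) reached it in 5 neurons or more, against 13.6%. Cacna1i alone had 0 fragments in all 10 neurons, as had 61.7% of the listed genes. By neuron, the members at this level numbered 3 in sample 1 (9.15% of listed genes), 0 in sample 2 (10.2%), 0 in sample 3 (9.13%), 1 in sample 4 (12.3%) and 2 in sample 5 (16.7%). They numbered 4 in sample 6 (15.9%), 3 in sample 7 (15.7%), 5 in sample 8 (16.8%), 1 in sample 9 (12%) and 2 in sample 10 (16.7%). The listed genes include many short and non-coding ones. Among the 1660 genes of the members' own range of lengths, 37.95% were at 1 FPKM or more in sample 1, 26.9% in sample 2, 23.1% in sample 3, 30.5% in sample 4 and 33.9% in sample 9. In samples 5, 6, 7, 8 and 10 the share was 49.6%, 52.1%, 51.2%, 53.7% and 48.9%. Samples 2 and 3, with none of the 8 members at this level, were thus also the libraries with the lowest shares among genes of like length.

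**Figure D2:**
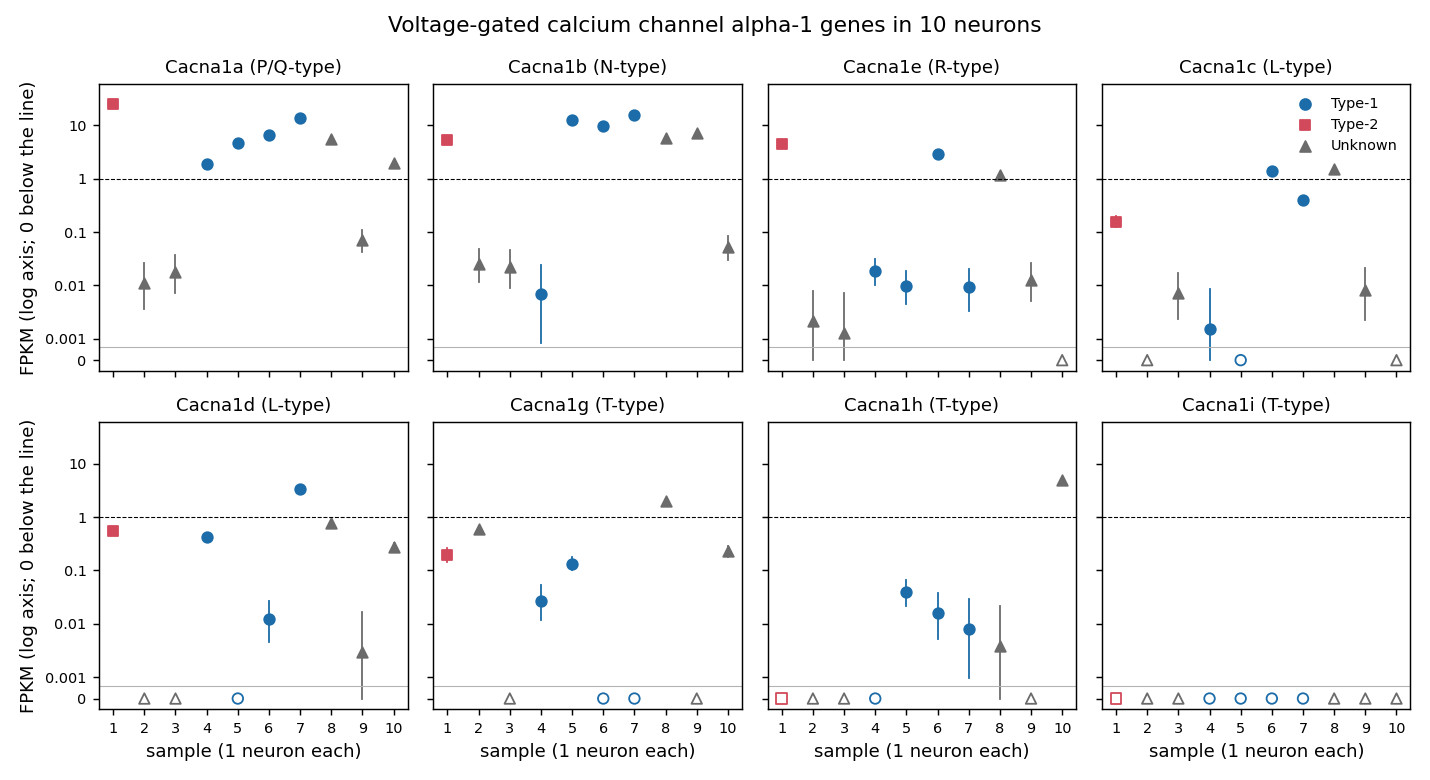
FPKM of each alpha-1 gene (panels, log axis, values of 0 drawn as open symbols below the grey line) in samples 1 to 10, with colour and shape giving the neuron type, bars giving the 95% Poisson interval of the count and a dashed line at 1 FPKM. Cacna1a and Cacna1b lie above 1 FPKM in 7 and 6 neurons, and Cacna1h in 1.

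Cacna1a, the P/Q-type gene, was at 1 FPKM or more in 7 of 10 neurons. It was highest in the Type-2 neuron, at 25.2 FPKM from 6649 fragments. The Type-1 samples 4, 5, 6 and 7 had 1.86, 4.64, 6.44 and 13.9 FPKM. The Unknown samples 2, 3, 8, 9 and 10 had 0.0112, 0.0183, 5.54, 0.0699 and 1.98 FPKM. All Type-1 neurons were thus above 1 FPKM, while the Unknown neurons split into 2 above and 3 below 0.1 FPKM, and the ranges of both types overlapped. The counts of samples 2 and 3, 5 and 7 fragments, compare with 5.34 and 5.36 expected from other libraries, and the 19 fragments of sample 9 compare with 6.27. In sample 4, the library low in neuronal genes, Cacna1a still held 674 fragments, of which 1.72 were expected from other libraries.

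Cacna1b, the N-type gene, was at 1 FPKM or more in 6 neurons. The Type-2 neuron had 5.20 FPKM, and the Type-1 samples 5, 6 and 7 had 12.4, 9.78 and 15.6 FPKM, the 3 highest values of the gene. Sample 4, the fourth Type-1 neuron, had 0.00683 FPKM, which is 2 fragments where 1.86 were expected from other libraries. The Unknown samples 8 and 9 had 5.75 and 7.07 FPKM, and samples 2, 3 and 10 had 0.0250, 0.0226 and 0.0527 FPKM. Each type except the single Type-2 neuron therefore held neurons with Cacna1b well above 1 FPKM and neurons with at most 16 fragments.

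Both release-channel genes were at 1 FPKM or more in samples 1, 5, 6, 7 and 8. Cacna1a alone was at that level in samples 4 and 10, Cacna1b alone in sample 9, the neuron with motoneuron genes, and neither in samples 2 and 3. The ratio of Cacna1a to Cacna1b FPKM was 4.86 in the Type-2 neuron (95% counting interval 4.56 to 5.18). In the Dbx1-derived Type-1 neurons it was 0.375 in sample 5, 0.658 in sample 6 and 0.890 in sample 7 (0.852 to 0.929). By deposited length Cacna1b was thus the higher gene in each. The interval of the Unknown sample 8 included equal levels by deposited length, at 0.964 (0.8999 to 1.03). The deposited lengths are 12310 bases for Cacna1a and 9942 for Cacna1b, where the medians of their coding transcripts are 7589 and 6984 bases. By fragments alone Cacna1a was the higher in samples 7 (4389 against 3985) and 8 (1813 against 1519). The order in samples 7 and 8 therefore rests on the lengths used, which the intervals do not cover. In the neurons with 1 of the 2 genes the ratio was 37.5 in sample 10 (22.9 to 65.9) and 0.00989 in sample 9 (0.00594 to 0.0155). No ratio is given for sample 4, since its 2 Cacna1b fragments match the number expected from other libraries. The Type-2 value has no replicate, and the difference from the 3 Type-1 neurons of the same mouse line is one between single cells.

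Cacna1e, the R-type gene, was present in few neurons. It was at 4.48 FPKM in the Type-2 neuron, 2.86 FPKM in the Type-1 sample 6 and 1.16 FPKM in the Unknown sample 8. In the other 7 neurons it was between 0 and 0.0189 FPKM, from 14 fragments or fewer. The gap between 14 and 779 fragments held no value. All 3 neurons with Cacna1e were among the 5 that had both Cacna1a and Cacna1b at 1 FPKM or more. The deposited length of Cacna1e, 25228 bases, lowers its FPKM, since the median of its coding transcripts is 9731 bases.

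The L-type genes varied between neurons, and their medians were below those of Cacna1a and Cacna1b. The FPKM of Cacna1c is also lowered by its deposited length of 21864 bases, where the median of its coding transcripts is 7124.5 bases. Cacna1c, the gene of the main L-type channel of heart and brain, was at 1.53 FPKM in the Unknown sample 8, 1.40 FPKM in the Type-1 sample 6, 0.399 FPKM in the Type-1 sample 7 and 0.156 FPKM in the Type-2 neuron. The other 6 did not exceed 0.00829 FPKM, with 0 fragments in samples 2, 5 and 10. Cacna1d, whose channel opens at more negative voltages than that of Cacna1c, was at 3.40 FPKM in the Type-1 sample 7, its highest value. Levels of 0.788, 0.539, 0.416 and 0.274 FPKM followed in samples 8, 1, 4 and 10. Samples 6 and 9 had 0.0126 and 0.00298 FPKM, and samples 2, 3 and 5 had 0 fragments. Samples 6 and 7, both P3 Dbx1-derived Type-1 neurons, thus differed in their leading L-type gene, with 964 Cacna1c and 6 Cacna1d fragments in sample 6 and 224 and 1326 in sample 7. Sample 5, the P0 Type-1 neuron of that mouse line, had 0 fragments of either.

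Of the T-type genes, each detected one was high in a single neuron, and both of these neurons were Unknown. Cacna1g reached 1.97 FPKM in sample 8, and samples 2, 10, 1 and 5 had 0.585, 0.226, 0.198 and 0.135 FPKM. Sample 4 had 0.0268 FPKM, and samples 3, 6, 7 and 9 had 0 fragments. Cacna1h was at 4.96 FPKM in sample 10, from 1479 fragments. No other neuron had more than 14 fragments of it, and samples 1, 2, 3, 4 and 9 had 0. In sample 10 this T-type gene was the highest of all alpha-1 genes, above Cacna1a at 1.98 FPKM. Sample 10 was also 1 of the neurons with GABAergic genes, with the GABA-synthesising enzyme Gad1 at 92.0 FPKM. The listed GABAergic or glycinergic gene Slc32a1 was at only 0.375 FPKM in it. The other 2 neurons with Gad1 above 10 FPKM, samples 1 and 3, had 0 fragments of Cacna1h. Cacna1i, the third T-type gene, had 0 fragments throughout, which allows at most 0.00830 to 0.0142 FPKM per library. Cacna1f and Cacna1s also had 0 fragments in each neuron.

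Sample 8 was the neuron with the most members, with 5 at 1 FPKM or more and 7 with a fragment. It held the highest value of Cacna1c and of Cacna1g. It was also the neuron in which all 10 genes of the astrocyte list were at 1 FPKM or more (2 to 9 in the others), with a sum of 2302 FPKM in a range of 151 to 6714 over the 10 libraries. The library with the highest sum, sample 3, had 0 fragments of Cacna1g and 5 of Cacna1c. It is among the libraries low in cDNA, and held 20 fragments of the 8 members in all. The part of astrocyte RNA in the values of sample 8 was not tested.

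Summed over the 8 genes, the level ran from 0.0495 FPKM in sample 3, from 20 fragments, to 35.8 FPKM in the Type-2 neuron. The Type-1 samples 4, 5, 6 and 7 had sums of 2.33, 17.2, 20.5 and 33.3 FPKM (18.3 ± 12.7, SD, n = 4 neurons). The Unknown samples 2, 3, 8, 9 and 10 had 0.623, 0.0495, 16.8, 7.17 and 7.49 FPKM (6.42 ± 6.76, SD, n = 5 neurons). The ranges of the types overlapped through sample 4 alone. Without it the Type-1 sums were 17.2 to 33.3 FPKM (23.7 ± 8.51, SD, n = 3 neurons), above each Unknown neuron by the small gap between 17.2 FPKM in sample 5 and 16.8 FPKM in sample 8. The neurons left are those from Dbx1;Ai148 mice. By mouse line, the 4 Dbx1-derived neurons had 17.2 to 35.8 FPKM and the 6 CD-1 neurons 0.0495 to 16.8 FPKM. These ranges did not overlap, by the same gap between samples 8 and 5, and for no single member were they apart. How many of the listed genes part the mouse lines was not counted, so neither result is read as particular to the members. Of the libraries low in cDNA, samples 2, 3 and 4 are CD-1 and only sample 1 is Dbx1-derived. Mouse line and library quality thus go together in part, and the part of quality in these sums was not tested. The P0 neurons (0.0495 to 35.8 FPKM) and the P3 neurons (2.33 to 33.3 FPKM) overlapped widely.

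The Cav2 genes made up 75.2 ± 32.3% of this sum (SD, n = 10 neurons), with a median of 86.9%. Their share was 74.3% or more in 8 neurons and 97.5% in the Type-2 neuron. Sample 3 is counted in these 8 and in the mean, but its 85.2% rests on 20 fragments and on values under 0.1 FPKM. The exceptions were samples 2 and 10, with 6.15% and 27.1%, where Cav3 genes made up 93.8% and 69.3%. The share in sample 2 is that of Cacna1g alone in a sum of 0.623 FPKM (231 fragments), whereas sample 10 had 2434 fragments of members. Cav3 genes were at 17.8 ± 34.3% on average with a median of 0.782%, so that their mean rests on few neurons, and they were at 11.8% in sample 8. Cav1 genes were at 7.07 ± 6.90% and at most 17.9%, in sample 4, and with coding transcript lengths their mean share was 10.2%. Within the Cav2 share the Type-2 neuron was led by Cacna1a, at 70.5% of its sum, and sample 9 consisted nearly of Cacna1b alone, at 98.7%.

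**Figure D3:**
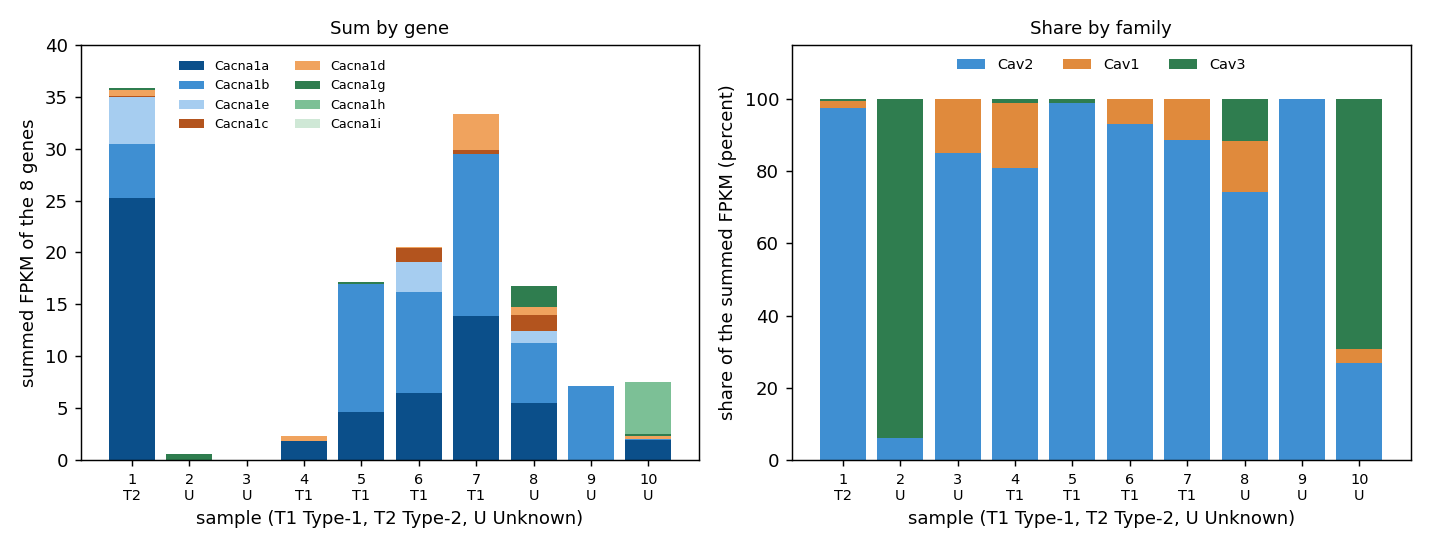
Summed FPKM of the 8 alpha-1 genes, stacked by gene (left), and the share of the Cav2, Cav1 and Cav3 families in that sum in percent (right), for samples 1 to 10. Cav2 genes make up most of the sum except in samples 2 and 10, and the bar of sample 3 rests on 20 fragments.

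Ordered by median FPKM over the 10 neurons, the genes were Cacna1b (5.48), Cacna1a (3.31), Cacna1d (0.143), Cacna1g (0.0807), Cacna1e (0.0112), Cacna1c (0.00781), Cacna1h (0.00193) and Cacna1i (0), where the medians below that of Cacna1d are under 0.1 FPKM and are not read as an order. Only between Cacna1a and Cacna1d was the mean difference of neighbours, 1.55 in log2(FPKM + 1), larger than the SD of the within-neuron differences (1.35), and Cacna1a was the higher in each of the 7 neurons in which either gene was at 0.1 FPKM or more. In mean log2(FPKM + 1) Cacna1a lay 0.02 above Cacna1b (SD of the differences 1.46). Among the 8 neurons with either at 0.1 FPKM or more, Cacna1b was the higher in 5 by deposited length. In samples 7 and 8 of these, Cacna1a had more fragments. By their means the order was another, with Cacna1a (5.97 ± 7.99 FPKM) above Cacna1b (5.59 ± 5.68 FPKM). Cacna1e (0.856 ± 1.57 FPKM) then lay above Cacna1d (0.543 ± 1.04 FPKM) and Cacna1h (0.503 ± 1.57 FPKM). The SD of each of these exceeded its mean (n = 10 neurons). A single neuron held 98.7% of the FPKM of Cacna1h, 62.7% of Cacna1g, 62.6% of Cacna1d and 52.4% of Cacna1e, against 43.8% of Cacna1c, 42.3% of Cacna1a and 27.9% of Cacna1b.

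Between the types, Cacna1a and Cacna1b had the largest differences in mean log2(FPKM + 1), and their order turned on sample 4. Cacna1a was at 2.7002 ± 0.99 in Type-1 neurons (n = 4) and 0.88 ± 1.22 in Unknown neurons (n = 5), a difference of 1.82 that exceeded the pooled SD of 1.12 although the ranges overlapped. Cacna1b was at 2.81 ± 1.88 and 1.18 ± 1.56, and its difference of 1.63 was within the pooled SD of 1.70. Without sample 4, whose Cacna1b was near 0, the difference was 2.56 for Cacna1b, above its pooled SD of 1.28, and 2.21 for Cacna1a (pooled SD 1.08). The remaining Type-1 neurons, all Dbx1-derived, then lay above each Unknown neuron in Cacna1b, at 9.78 to 15.6 FPKM against at most 7.07 FPKM, but not in Cacna1a. Among the 10420 genes that reached 1 FPKM in 3 neurons or more, 3.92% parted the types in this direction without sample 4 and 0.71% with it. Only 3 of the 8 members are among these genes, and of them Cacna1b parted the types without sample 4 and none did with it. Without samples 2, 3 and 4 the difference was 1.79 for Cacna1b and 1.63 for Cacna1a. Over the same 10420 genes and all neurons of both types, the difference had a median of 0.17 and quartiles of -0.46 and 0.87.

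For the other members the difference between the types was within the pooled SD and hung on single neurons. It was 0.27 for Cacna1e, which became -0.21 without sample 6 and 0.43 without sample 4. It was 0.16 for Cacna1c, which became -0.11 without sample 6 and 0.31 without sample 4, and 0.43 for Cacna1d, which became -0.07 without sample 7. For Cacna1g it was -0.45, and -0.18 without sample 8. For Cacna1h it was -0.49, and 0.02 without sample 10. No direction is therefore read for these 5 genes.

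The Type-2 neuron can be set beside the 3 Type-1 neurons of the same mouse line only as 1 cell beside 3. Its Cacna1a level of 25.2 FPKM lay above their 4.64 to 13.9 FPKM, and its Cacna1e level of 4.48 FPKM above their 0.00926 to 2.86 FPKM. Its Cacna1b level of 5.20 FPKM lay below their 9.78 to 15.6 FPKM. By transmitter genes these neurons differ too. The glutamate transporter gene Slc17a6 was at 101.4 to 158 FPKM in the 3 Type-1 neurons and 0.260 FPKM in the Type-2 neuron. Of the 4 listed GABAergic or glycinergic genes, the Type-2 neuron had the glycine transporter gene Slc6a5 at 146 FPKM, Gad1 at 71.8 and Gad2 at 43.5. The fourth, Slc32a1, was at only 0.0167 FPKM there. Among the 3 Type-1 neurons, sample 7 had Gad2 at 5.14 FPKM. Type and transmitter cannot be told apart in these cells.

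The alpha-1 subunits of Cav1 and Cav2 channels reach the membrane and gate normally only with auxiliary subunits. The beta subunits (Cacnb1 to Cacnb4) bind the channel inside the cell and aid its trafficking, and the alpha2delta subunits (Cacna2d1 to Cacna2d4) sit outside and raise its surface density. All 4 beta genes reached 1 FPKM in 5 neurons or more, against 13.6% of listed genes. Each neuron had at least 1 beta gene at that level, the samples 2 and 3 without alpha-1 genes at it included. The beta gene with the highest median was Cacnb3, at 5.67 FPKM (0.00792 to 54.4 FPKM). Which beta gene led differed by neuron. In the Type-2 neuron it was Cacnb4 at 42.9 FPKM, and in the Type-1 samples 4 to 7 it was in turn Cacnb1 at 6.51, Cacnb3 at 11.2, Cacnb4 at 13.9 and Cacnb1 at 8.20 FPKM. In the Unknown samples it was Cacnb2 in sample 2, at 13.5 FPKM, and Cacnb3 in samples 3, 8, 9 and 10, at 21.1 to 54.4 FPKM. The 4 Type-1 neurons thus had 3 different leading beta genes, while 4 of 5 Unknown neurons shared 1.

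The alpha2delta genes reached 1 FPKM in fewer neurons than the beta genes. None of the 4 reached it in 5 neurons, against 13.6% of listed genes, and samples 2, 4 and 8 had none at that level. Cacna2d1, a binding site of gabapentin, had the highest median, at 0.536 FPKM. It led in the Type-1 neurons, with 0.378, 1.27, 7.32 and 8.41 FPKM in samples 4 to 7. It also led in the Unknown samples 2 and 8, at 0.695 and 0.952 FPKM, both above its level in sample 4. Cacna2d3 was at 86.0 FPKM in the Type-2 neuron, 11.5 FPKM in sample 9 and 11.9 FPKM in sample 10. The other 7 did not exceed 0.107 FPKM. The Type-2 neuron thus had the highest levels of Cacna1a, Cacna1e, Cacnb4, Cacnb2 and Cacna2d3 of the 10. Most members of the gamma family are now known as auxiliary proteins of AMPA receptors. Of its 8 genes, 4 reached 1 FPKM in 1 neuron or more (29.9% of listed genes) and 2 in 5 or more (13.6%). Cacng4 had the highest median, at 13.2 FPKM.

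Some genes of proteins that hold Cav2 channels at the active zone reached 1 FPKM in every neuron but sample 4, but not the same ones in each. Of the 6 genes Rims1, Rims2, Rimbp2, Tspoap1, Erc1 and Erc2, 5 reached 1 FPKM in 5 neurons or more, against 13.6% of listed genes. Erc1, a scaffold of the active zone, had the highest median, at 8.93 FPKM. Samples 2 and 3, the neurons with Cacna1a and Cacna1b under 0.1 FPKM, had 27.9 and 11.3 FPKM of it. In sample 2 only 2 of the 6 genes were at 1 FPKM or more, and Rims1, Rims2, Rimbp2 and Erc2 did not exceed 0.0247 FPKM. In sample 3 only 3 of the 6 were at that level. Sample 4 had none of the 6 genes at 1 FPKM or more, and its Erc1 level was 0.0251 FPKM.

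Regulators of the channels were more scattered. Of the 3 Stac genes, whose proteins slow the inactivation of L-type channels, Stac had the highest median at 0.0517 FPKM. It lay between 9.49 and 30.7 FPKM in samples 5, 7, 8 and 10, and elsewhere did not exceed 0.0857 FPKM. Of the 4 RGK genes, whose small GTPases inhibit the channels through the beta subunit, Rem2 had the highest median at 0.0381 FPKM, with 8.70, 35.6 and 36.7 FPKM in samples 5, 9 and 10. Calmodulin, the Ca2+ sensor on the tail of the alpha-1 subunit, was abundant in every neuron, and Calm2 was at 605 to 2616 FPKM. Of all 35 listed partner genes, Cacna1f and Cacna1s included, 27 reached 1 FPKM in 1 neuron or more, 15 in 5 or more, and 4 had 0 fragments in all. Over the 55367 listed genes these shares were 29.9%, 13.6% and 61.7%.

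**Figure D4:**
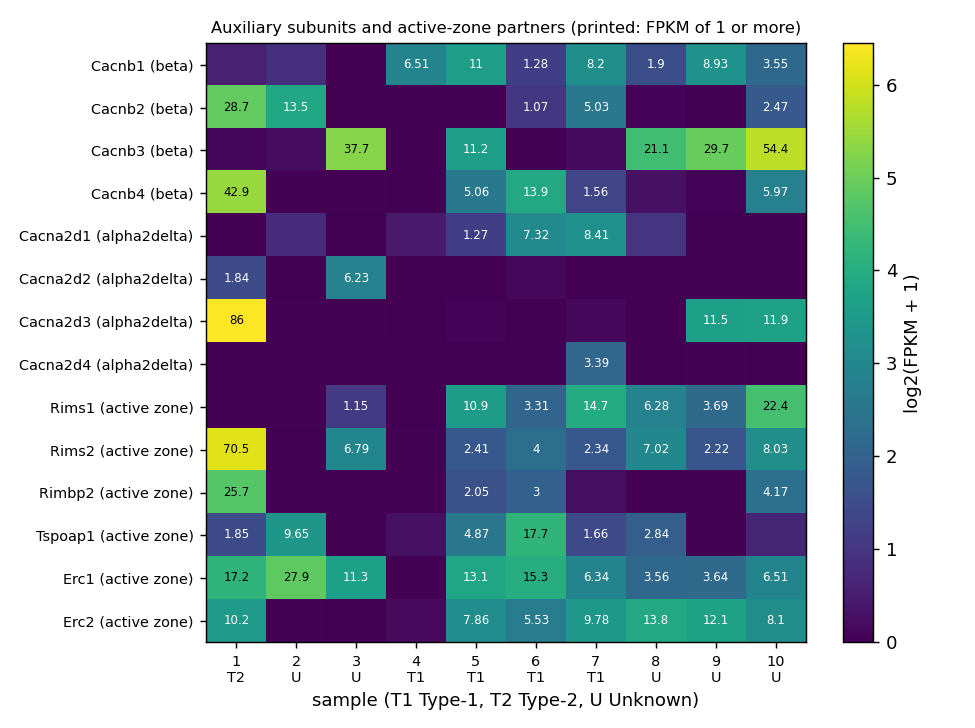
Level of the beta, alpha2delta and active-zone genes in samples 1 to 10, as colour in log2(FPKM + 1), with the FPKM printed where it is 1 or more. Each neuron has at least 1 beta gene, and the leading beta and alpha2delta genes differ between neurons.

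The genes whose levels ran most alike to those of the members were sought among the 10419 others that reached 1 FPKM in 3 neurons or more, by Pearson's r of log2(FPKM + 1) over the 10 neurons. The points share the depth and quality of their libraries, and r is a description only. For Cacna1a they were Ttc14 (r = 0.974), Rbm5 (0.961) and Tfdp1 (0.961), and 63 genes had r of 0.9 or more. Without samples 1 to 4 these r were 0.928, 0.890 and 0.902, and the genes ranked 89, 230 and 187. For Cacna1b they were Meis1 (0.941), 4833420G17Rik (0.939) and Tmx4 (0.938), with 10 genes at 0.9 or more, and without samples 1 to 4 they were 0.880, 0.846 and 0.901, at ranks 90, 128 and 60. The most alike genes of both members were thus others in samples 5 to 10. For Cacna1e they were S100a6 (0.993), Usp40 (0.988) and Acot8 (0.978), and these rest on the 3 neurons that had Cacna1e, since the Spearman correlations of FPKM were 0.663, 0.657 and 0.644.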

How the data were processed

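RNA of 10 single neurons was sequenced after SMART-Seq v4 amplification. Per the submitters' processing notes and the study's methods, reads were checked with FastQC 0.11.8, trimmed, aligned with STAR 2.7.7a to GRCm38 and counted per gene with featureCounts. For 55367 genes, the authors deposited the raw counts of fragments, the FPKM made from them and the gene length. The counter's options for fragments that match several genes are not given in the sources used here. The deposited FPKM equalled count divided by length and total, recomputed to within a relative difference of 3.33e-13.

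The members and lists were chosen with earlier results of these data known. Groups are from the sample labels. Named are the 8 members, the partner gene with the highest median FPKM of each family, and the 3 genes most like each member that reached 1 FPKM in 3 neurons or more. Other partner and marker genes were named after their values were seen. Levels between genes were compared as FPKM, and between types as log2(FPKM + 1), which understates differences of low genes. With 1 library per neuron and no animal named, values describe these cells, SDs measure the spread between neurons, and no test was made. Fragments expected from other libraries used rates of genes nearly private to a library (a minimum of 1000 counts there, a maximum of 2% of these elsewhere, the top 5% of genes trimmed). The highest rate was 0.157%. The procedure was tested on simulated data in which each gene belonged to 1 library alone. That test does not show how accurate the rates are in these libraries, where such genes may be weakly expressed in other neurons. Positions and pore sequences are from GENCODE M21 on GRCm38. Alternatives were other pseudocounts, limits, lengths, TPM, left-out libraries and other correlations. Matplotlib 3.10.9, SciPy 1.17.1, pandas 2.3.3 and NumPy 2.4.6 were used under Python 3.11.15.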

Additional observations from a re-analysis of the deposited data

Results flagged for a closer look

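Of 21 groups of values examined with Dixon's criterion in log2(FPKM + 1), 8 held a neuron far from the rest. The groups were the Type-1 neurons, the Unknown neurons and all neurons, for each member except Cacna1i. The limits of the criterion flag about 1 group in 20 by chance only where values are normally distributed. Many of these groups hold mostly values under 0.1 FPKM and few higher ones. That rate therefore cannot be set against the 8 flags, which only describe the values. Groups of the same gene are also not independent.

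Among the Type-1 neurons, sample 4 was low in Cacna1b, at 0.00683 FPKM, and sample 6 was high in Cacna1e, at 2.86 FPKM. Among the Unknown neurons, sample 8 was high in Cacna1e, at 1.16 FPKM, and in Cacna1c, at 1.53 FPKM. Sample 10 was high in Cacna1h, at 4.96 FPKM, both among the Unknown neurons and among all 10. Among all neurons, sample 7 was high in Cacna1d, at 3.40 FPKM, and sample 8 in Cacna1g, at 1.97 FPKM. Each value is from 1 library, without a replicate.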

How the results depend on the processing

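With a pseudocount of 0.1 in place of 1, the difference between Type-1 and Unknown neurons was 3.48 for Cacna1a and -1.38 for Cacna1g, and the mean levels of Cacna1e, Cacna1c, Cacna1d, Cacna1g and Cacna1h fell by more than 1 SD, since they rest on values near 0. Of 84 alternative values of the type difference, the other 82 stayed within the pooled SD of the reported ones. Without sample 4, the difference of Cacna1b passed its pooled SD and exceeded that of Cacna1a. This setting's ranges and SDs, and the limit of 0.1 FPKM for comparing neighbours, were chosen after seeing the data. The sign of the differences of Cacna1e, Cacna1c, Cacna1d and Cacna1h turned when 1 neuron was left out. The family shares stayed within 1 SD in each of 15 alternative values, among them shares of counts, of median coding transcript lengths and without samples 1 to 4. That length, chosen after seeing the data, put Cacna1c above Cacna1d in mean level. Subtracting the fragments expected from other libraries left the number of values at 1 FPKM or more at 21. At a limit of 2 FPKM, Cacna1c and Cacna1g reached it in 0 neurons, and at 0.5 FPKM Cacna1d did in 3 and Cacna1g in 2. No paired analysis was possible because each sample is a single neuron, the replicate numbers only name the neurons, and no test was made. Depth limits values to 3 counts, 0.00325 to 0.0144 FPKM, and fragments expected from other libraries limit those under 0.1 FPKM.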
